A study of Mus musculus with 16 samples.

Results

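The SoxF genes Sox7, Sox17 and Sox18 encode a subgroup of the transcription factors related to SRY. They were taken as every probe set with a single gene symbol that named 1 of these 3 genes in the array annotation, which gave 5 of the 45037 probe sets tested and 3 of the 18193 genes with a single symbol. Sox7 and Sox17 each had 2 probe sets and Sox18 had 1. Each gene is described by its brightest probe set on average, 1416564_at for Sox7, 1429177_x_at for Sox17 and 1449135_at for Sox18, and the other probe sets are given on their own.

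SoxF factors bind DNA through an HMG box and activate target genes together with partner proteins. All 3 are expressed in developing vessels. In mice they act with overlapping roles in endothelial specification, artery formation and lymphatic development, and Sox18 is the gene altered in ragged mice. Sox17 is in addition a regulator of the definitive endoderm, and Sox7 is known from the primitive and parietal endoderm, so a SoxF signal in differentiating embryonic stem cells can be read as endothelial or as endodermal.

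The study differentiated mouse CCE embryonic stem cells into embryoid bodies without leukemia inhibitory factor and sorted their cells by surface markers. The groups were CD144+ and CD144- cells at day 6.5, CD144+ and CD144- cells at day 3.5, CD41+ and CD41- cells at day 3.5, and VEGF-R2+ and VEGF-R2- cells at day 2.5. VEGF-R2 is an early mesoderm and hemangioblast marker, CD41 marks the first blood progenitors and CD144 is the cadherin of endothelial junctions. Each of the 8 populations had 2 arrays with RNA from separately conducted experiments, all from 1 cell line with no genetic change or added treatment named in the labels. The labels name each population by a single marker, whereas the study also describes double labelling and writes its CD41+ and CD144+ cells in places as VEGF-R2+ and its CD41- cells as VEGF-R2-. Whether VEGF-R2 took part in the gates of day 3.5 and day 6.5 is therefore not settled here. Because these were sorted mixtures, fewer cells that express a gene and less of its RNA in each cell cannot be told apart.

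Values are linear MAS5 signals, whose scaling target was not stated. Their trimmed mean (2nd to 98th percentile), averaged over the arrays, was 499.8. Fold changes are on the log2(signal + 6) scale, which understates changes of dim probe sets, and were fitted in limma over all 16 arrays with Benjamini-Hochberg adjustment over all probe sets. A change was called at an adjusted p under 0.05. Each probe set had 1 spread shared by all 8 populations, which set its standard errors, p-values and intervals. Leaving out an array of other populations can therefore change a call at an unchanged value. For Sox17 by 1429177_x_at the standard deviation of duplicates was 0.93 in CD41+ cells on the log2 scale, against 0.02 to 0.31 elsewhere. For Sox18 it was 1.24 in CD144- cells at day 6.5, against 0.06 to 0.58 elsewhere. The median of all signals was 85.8, and no call of presence or absence was used. The genes of the sorting markers were higher in their own positive cells, by 1.49 on the log2 scale for Kdr at day 2.5, 4.87 for Itga2b, and 5.85 and 6.05 for Cdh5 at day 3.5 and day 6.5. Kdr still averaged 2083 in VEGF-R2- cells, against 5886 in VEGF-R2+ cells and 74.3 to 870 in the later negative populations. The Spearman correlation of duplicate arrays was 0.873 to 0.895 for positive and 0.945 to 0.955 for negative populations. The spiked control RNAs had a mean signal of 8122 to 13760 on arrays of positive cells and 2490 to 4309 on arrays of negative cells, so the sort and this difference between array sets cannot be told apart.

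In all 4 sorts Sox7 was higher in positive cells. At day 2.5 its signal was 1911 and 2639 in VEGF-R2+ cells, against 457 and 436 in VEGF-R2- cells. At day 3.5 it was 588 and 1165 in CD41+ cells, against 40.8 and 25.7 in CD41- cells. In the CD144 sort of that day it was 1835 and 1794 in CD144+ cells, against 59.5 and 71.9 in CD144- cells. No positive array overlapped a negative array, and the 4 negative arrays of day 3.5 lay below the median of all signals. At day 6.5 the signal was 1291 and 1665 in CD144+ cells, against 175 and 139 in CD144- cells, so the negative cells of this day were above that median. The log2 fold changes were 2.32 for VEGF-R2 (standard error, SE, 0.29, adjusted p = 2e-05), 4.44 for CD41 (adjusted p = 7.11e-09), 4.67 for CD144 at day 3.5 (adjusted p = 1.92e-08) and 3.18 for CD144 at day 6.5 (adjusted p = 1.03e-06), with the same SE. At day 3.5 in the CD144 sort this was the 53rd highest of 45037 fitted changes. The order of the Sox7 means ran over VEGF-R2+, CD144+ at day 3.5, CD144+ at day 6.5 and CD41+ cells, then VEGF-R2-, CD144- at day 6.5, CD144- at day 3.5 and CD41- cells. No neighbours in this order overlapped, although the first 3 were not called different from each other. The other Sox7 probe set, 1432495_at, was dim, with signals of 3.33 to 107, and passed the test in none of the 14 comparisons in limma.

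**Figure D1:**
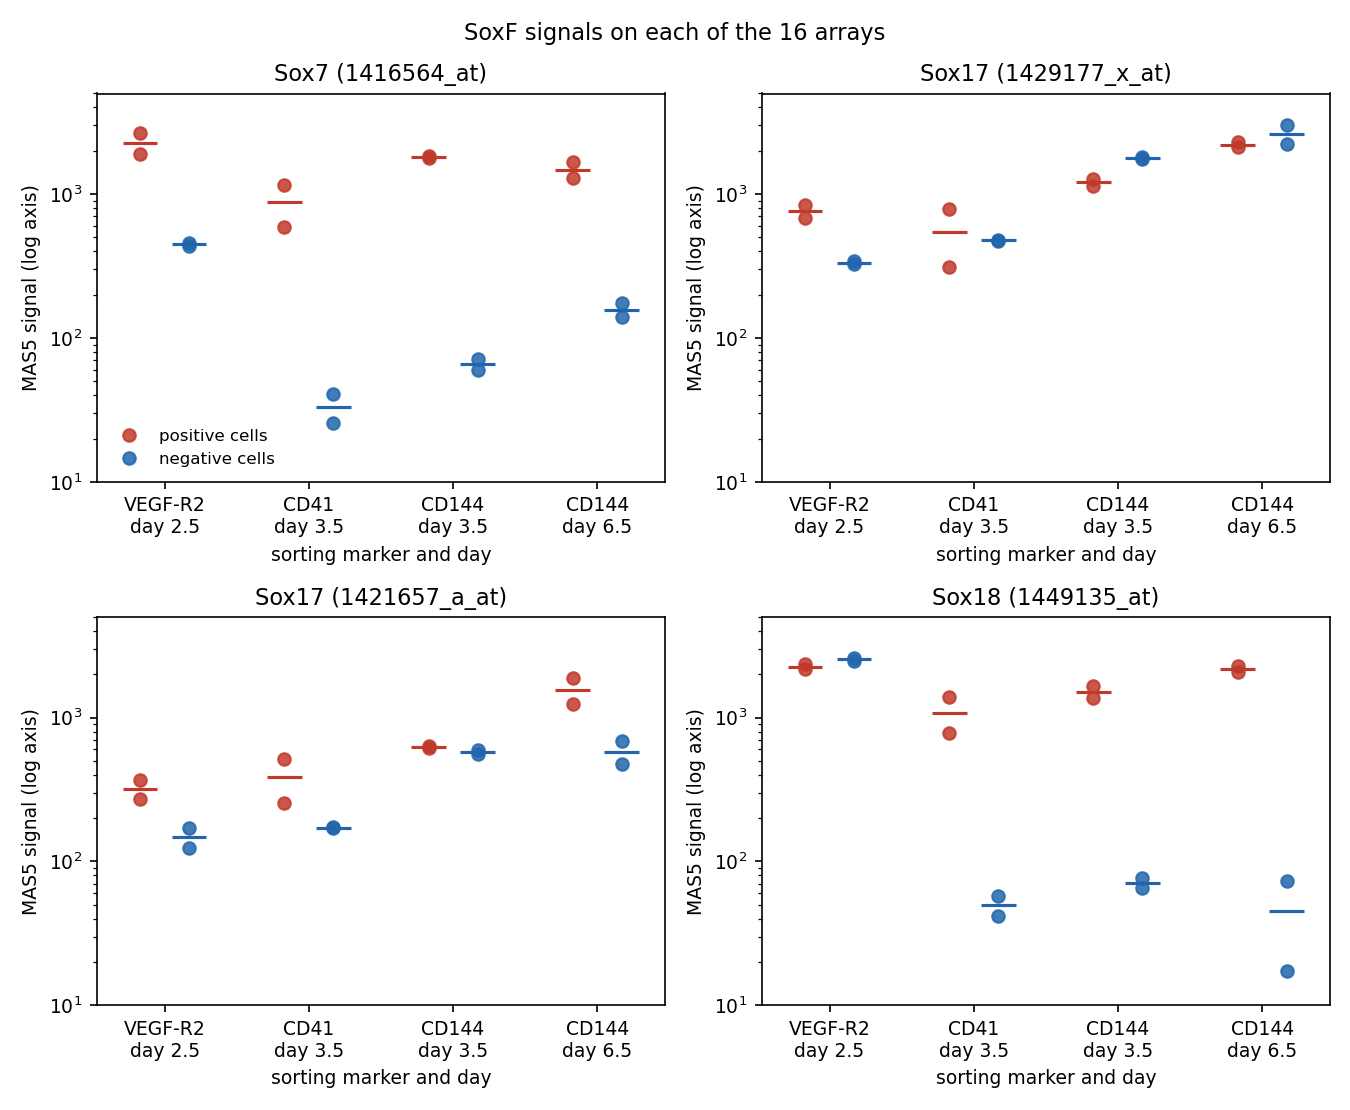
MAS5 signal (log axis) of Sox7, Sox17 (both probe sets) and Sox18 on each array, by sorting marker and day, with positive cells in red to the left of negative cells in blue; points are arrays and bars are means of the 2 arrays. Sox7 lies at 588 to 2639 on positive arrays and at 25.7 to 457 on negative arrays, Sox18 is at 2182 to 2612 in both VEGF-R2 populations, and Sox17 by the _x_at probe set is highest at day 6.5 in positive and negative cells alike.

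Sox18 was bright in VEGF-R2+ and VEGF-R2- cells alike at day 2.5, whereas in each later sort it was bright in positive and dim in negative cells. At day 2.5 its signal was 2340 and 2182 in VEGF-R2+ cells, against 2460 and 2612 in VEGF-R2- cells. The log2 fold change of -0.17 did not pass the test (SE 0.39, adjusted p = 0.805), and its 95% interval ran from -0.98 to 0.65. At day 3.5 the signal was 778 and 1381 in CD41+ cells, against 41.8 and 57.3 in CD41- cells. In the CD144 sort of day 3.5 it was 1652 and 1377 in CD144+ cells, against 76.5 and 65.5 in CD144- cells. All 4 negative arrays of day 3.5 were below the median of all signals, and none came near a positive array. At day 6.5 it was 2295 and 2063 in CD144+ cells, against 72.6 and 17.3 in CD144- cells. The log2 fold changes were 4.24 for CD41 (adjusted p = 3.33e-07), 4.30 for CD144 at day 3.5 (adjusted p = 1.08e-06) and 5.67 for CD144 at day 6.5 (adjusted p = 5.28e-08), each with an SE of 0.39. The change at day 6.5 was the 30th highest of all probe sets tested. It was 4.79 without the dimmer CD144- array of that day. In the order of means, VEGF-R2- cells came first and CD144- cells at day 6.5 last. VEGF-R2+ cells overlapped CD144+ cells at day 6.5, CD144+ cells at day 3.5 overlapped CD41+ cells, and CD41- cells overlapped CD144- cells at day 6.5.

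By its _x_at probe set, Sox17 had signals of similar size on both sides of the later sorts. At day 2.5 the _x_at signal was 681 and 842 in VEGF-R2+ cells, against 340 and 328 in VEGF-R2- cells, without overlap. This was called, with a log2 fold change of 1.17 (SE 0.28, adjusted p = 0.00544), and was 1.01 without VEGF-R2+ replicate 2 (adjusted p = 0.062). At day 3.5 the signal was 312 and 782 in CD41+ cells, against 471 and 482 in CD41- cells, and the positive arrays lay on both sides of the negative ones. In the CD144 sort it was 1275 and 1138 in CD144+ cells, against 1758 and 1814 in CD144- cells at day 3.5. At day 6.5 it was 2307 and 2110 in CD144+ cells, against 2212 and 3010 in CD144- cells. Here the duplicates of both populations reached the same range. The log2 fold changes of 0.05 for CD41 (adjusted p = 0.917), -0.57 for CD144 at day 3.5 (adjusted p = 0.179) and -0.23 for CD144 at day 6.5 (adjusted p = 0.644) did not pass the test. Their 95% intervals were -0.54 to 0.65, -1.16 to 0.03 and -0.82 to 0.37. The CD144 difference at day 3.5 passed the threshold when only its own 4 arrays were fitted (adjusted p = 0.0147) or when either CD41+ array was left out (adjusted p = 0.0176 and 0.0183). The CD41 value depended on the array used: it was 0.71 without CD41+ replicate 1 (adjusted p = 0.0139) and -0.60 without CD41+ replicate 2 (adjusted p = 0.0328).

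The other Sox17 probe set, 1421657_a_at, gave a different picture in 2 of the 4 sorts. The suffix _x_at marks probe sets in which some probes may match other sequences, and _a_at marks those that cover alternative transcripts of the same gene. At day 6.5 the _a_at signal was 1887 and 1238 in CD144+ cells, against 683 and 475 in CD144- cells, without overlap. The log2 fold change was 1.41 (SE 0.30, adjusted p = 0.00276). In the CD41 sort the signal was 254 and 518 in CD41+ cells, against 170 and 173 in CD41- cells, with a log2 fold change of 1.06 (adjusted p = 0.0132). Both Sox17 probe sets gave the same call in the remaining sorts. At day 2.5 the signal was 271 and 366 in VEGF-R2+ cells, against 170 and 124 in VEGF-R2- cells, with a log2 fold change of 1.08 (adjusted p = 0.0136). At day 3.5 it was 636 and 617 in CD144+ cells, against 598 and 556 in CD144- cells, and the log2 fold change of 0.12 did not pass the test (adjusted p = 0.833). The ratio of the _a_at probe set to the _x_at probe set within an array was 0.499 to 0.818 on the 6 positive arrays of day 3.5 and day 6.5, against 0.158 to 0.360 on the 6 negative arrays of those days. At day 2.5 it was 0.398 and 0.435 in VEGF-R2+ cells, against 0.5 and 0.379 in VEGF-R2- cells, so the separation was seen only in the later sorts. A ratio of this kind shows that the probe sets changed unequally and does not say which of them follows the Sox17 transcript.

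**Figure D2:**
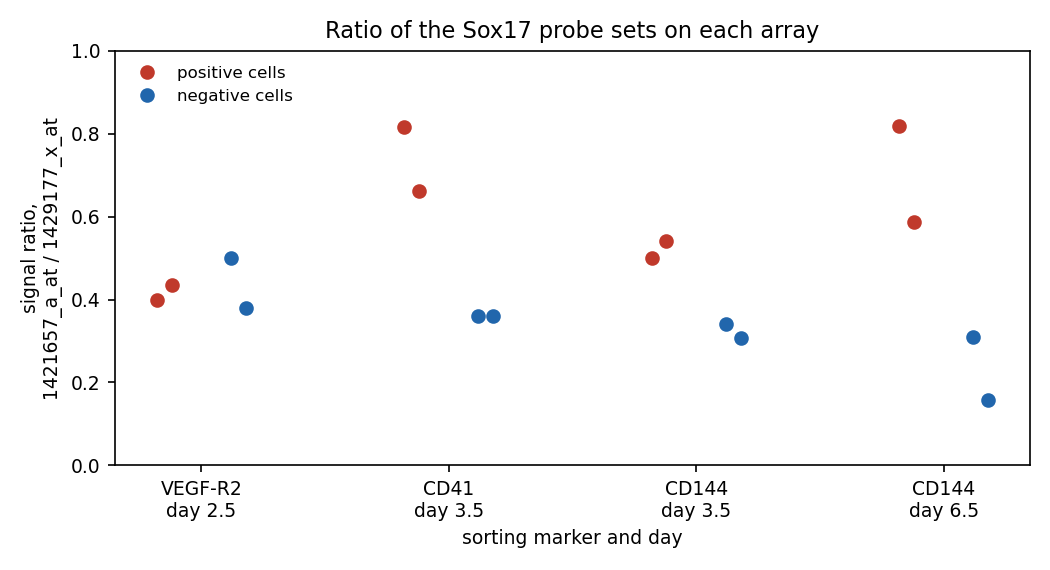
Ratio of the Sox17 signals of probe sets _a_at and _x_at on each array (linear axis from 0), by sorting marker and day, with positive cells in red to the left of negative cells in blue. The 6 positive arrays of day 3.5 and day 6.5 lie at 0.499 to 0.818, above the 6 negative arrays of those days at 0.158 to 0.360, while the 4 arrays of day 2.5 overlap.

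By the brightest probe set of each gene, 2 of the 3 SoxF genes were called higher in positive cells of each sort. These were Sox7 and Sox17 for VEGF-R2 at day 2.5, where 11.1% of all probe sets and 16% of all genes were called higher. They were Sox7 and Sox18 in the later sorts. For CD41, 13.5% of all probe sets and 19.2% of all genes were called higher. These shares were 9.49% and 13.7% for CD144 at day 3.5, and 9.41% and 13.4% for CD144 at day 6.5. By its _a_at probe set Sox17 was also called higher in limma for CD41 (1.06, adjusted p = 0.0132) and for CD144 at day 6.5 (1.41, adjusted p = 0.00276). Its _x_at value for CD41 was 0.71 without CD41+ replicate 1 and -0.60 without CD41+ replicate 2. Sox7 and Sox17 were among the factors that the study named for cells of these arrays, so their calls are not independent of its choice, and it named Sox18 from embryo cells that were not analysed here. The study's list of genes higher in CD144+ cells of both day 6.5 and the embryo gives Sox17 under the sequence record of the _a_at probe set. Its list from embryo cells alone gives the record of the _x_at probe set.

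**Figure D3:**
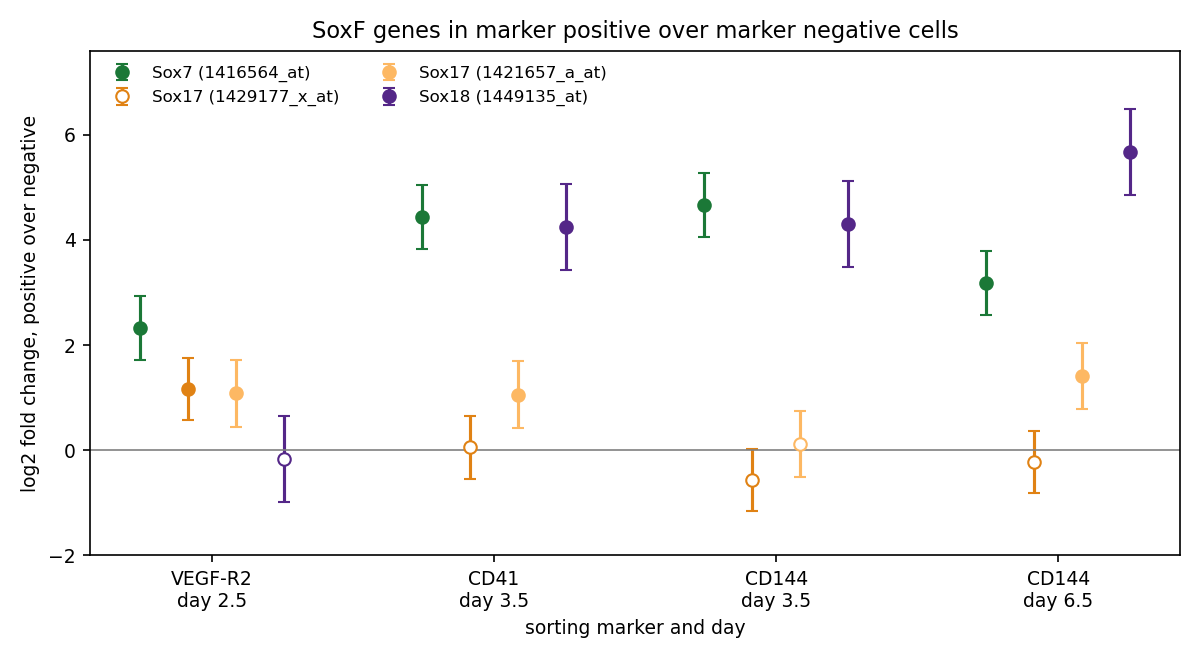
Log2 fold change of positive over negative cells for each SoxF probe set in the 4 sorts; points are limma estimates, bars are 95% intervals, and filled points passed an adjusted p under 0.05. Sox7 lies above 0 in all 4 sorts, Sox18 at -0.17 for VEGF-R2 and at 4.24 to 5.67 in the later sorts, and the Sox17 probe sets part at CD41 and at CD144 of day 6.5.

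Whether these differences changed between sorts was tested directly, as the positive minus negative difference of 1 sort set against that of another. From VEGF-R2 at day 2.5 to CD144 at day 3.5 the difference grew for Sox7 by 2.35 (SE 0.41, adjusted p = 0.0017) and for Sox18 by 4.47 (SE 0.55, adjusted p = 6.35e-05). For Sox17 it fell by 1.73 (SE 0.40, adjusted p = 0.0143). All 3 genes were called here, where 5.30% of all probe sets were called in either direction (4.75% of all genes higher and 3.59% lower). The Sox17 value ranged from -1.88 to -1.58 when each array was left out. It was no longer called without VEGF-R2+ replicate 2, CD144+ replicate 2, CD144- replicate 2 or either VEGF-R2- array (highest adjusted p = 0.0666), and the _a_at probe set gave -0.96 (adjusted p = 0.247). Between CD144 at day 6.5 and CD144 at day 3.5, limma called 0 of the 3 genes (2 at an unadjusted p under 0.05), where 0.790% of all probe sets were called. The values were -1.49 for Sox7 (adjusted p = 0.112), 0.34 for Sox17 (adjusted p = 0.798) and 1.37 for Sox18 (adjusted p = 0.301). Sox7 was called there without CD41+ replicate 1 or 2 (adjusted p = 0.0337 and 0.0357), and Sox18 without CD144- replicate 1 of day 6.5, at 2.25 (adjusted p = 0.00578), against 0.49 without replicate 2. Between CD144 and CD41 at day 3.5 limma again called 0 of the 3 genes (0 at an unadjusted p under 0.05), where 5.62% of all probe sets were called. Sox17 gave -0.62 in that test, and -1.27 without CD41+ replicate 1 (adjusted p = 0.00629). The differences between the genes in these values were not tested.

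Along the positive populations Sox7 and Sox18 stayed bright, and Sox17 was higher at day 6.5. VEGF-R2+ and CD144+ cells differ in both day and sorting marker, whose parts cannot be told apart. The Sox17 signal of the _x_at probe set was 2307 and 2110 in CD144+ cells at day 6.5, against 681 and 842 in VEGF-R2+ cells at day 2.5. Its log2 fold change was 1.54 (SE 0.28, adjusted p = 0.00107), and that of the _a_at probe set was 2.26 (SE 0.30, adjusted p = 6.48e-05). Sox17 was thus the 1 gene of 3 called higher at day 6.5, where 9.40% of all probe sets and 12.8% of all genes were called higher. Sox7 gave -0.61 (adjusted p = 0.179) and Sox18 gave -0.05 (adjusted p = 0.953) in that comparison. For CD144+ cells at day 3.5 against VEGF-R2+ cells, limma called 0 of the 3 genes (1 at an unadjusted p under 0.05), where 7.71% of all probe sets were called. Sox7 gave -0.31, Sox17 0.67 and Sox18 -0.58 there (adjusted p = 0.598, 0.176 and 0.422), and Sox17 was called without CD41+ replicate 1 or 2 (adjusted p = 0.0146 and 0.0153). For CD144+ cells at day 6.5 against day 3.5, limma called 0 of the 3 genes (1 at an unadjusted p under 0.05), where 5.84% of all probe sets were called. Sox17 gave 0.87 by the _x_at probe set (adjusted p = 0.0798) and 1.28 by the _a_at probe set (adjusted p = 0.0187), so only the second probe set passed the threshold. The first did so without CD41+ replicate 1 or 2 (adjusted p = 0.00366 and 0.00384).

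CD41+ cells had less Sox7 and Sox17 signal than CD144+ cells of the same day, but these calls depended on single arrays. CD144+ cells were higher in Sox7 by 1.13 (adjusted p = 0.0185) and in Sox17 by 1.28 (adjusted p = 0.00705), that is in 2 of 3 genes, where 6.06% of all probe sets were called higher. Sox18 gave 0.54 (adjusted p = 0.457), and the _a_at probe set of Sox17 gave 0.78 (adjusted p = 0.124). Genes of other cell types moved in the same comparison: 12 of 12 pluripotency genes (median 2.86) and 12 of 26 endoderm genes were called higher and 12 of 15 blood genes lower, where 9.59% of all genes were called higher and 5.07% lower. Their part in the SoxF values was not tested. The blood list includes Itga2b, the gene of the sorting marker CD41. Without CD41+ replicate 1 the values were 0.64 for Sox7 and 0.62 for Sox17, and both calls were lost. With only 1 CD41+ array left, fewer of all probe sets were called as well. The Sox7 call was also lost without either CD144+ array of day 3.5 (adjusted p = 0.0858 and 0.0933), and the Sox17 call without replicate 1 of these (adjusted p = 0.058). Against VEGF-R2+ cells of day 2.5, CD41+ cells were lower in Sox7, which fell by 1.43 (adjusted p = 0.00357). This was 1 of 3 genes, where 4.82% of all probe sets and 7.59% of all genes were called lower. Sox18 gave -1.12 (adjusted p = 0.0818) and Sox17 gave -0.61 (adjusted p = 0.21). At the same value Sox18 was called without either CD144- array of day 6.5 (adjusted p = 0.00541 and 0.00506), with only these 2 populations fitted (adjusted p = 0.0307) and with positive arrays alone (adjusted p = 0.00721), and it was called at -1.11 and -1.07 with offsets of 16 and 64. The Sox7 value was -0.94 without CD41+ replicate 1 (adjusted p = 0.0626) and -1.20 without VEGF-R2+ replicate 2 (adjusted p = 0.0569). Without CD41+ replicate 2, Sox17 gave -1.26 (adjusted p = 0.000447) and Sox18 gave -1.53 (adjusted p = 0.0404). On CD41+ replicate 1 all 4 SoxF probe sets described above were dimmer than on its duplicate, by a median of 0.99 on the log2 scale. So were 22 of 25 endothelial genes and 12 of 12 pluripotency genes, against 3 of 15 blood genes and 8348 of all 18193 genes. The part of this in the SoxF values was not tested.

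From VEGF-R2- cells at day 2.5 to CD144- cells at day 6.5, Sox17 and Sox18 differed in opposite directions. The day and the sorting marker change together in this comparison, so their parts cannot be told apart. Sox18 had signals of 72.6 and 17.3 in CD144- cells at day 6.5, against 2460 and 2612 in VEGF-R2- cells at day 2.5. The log2 value fell by 5.89 (SE 0.39, adjusted p = 5.85e-08), the lowest of the 45037 changes fitted in this comparison. Without the dimmer array of day 6.5 it fell by 5.01. Sox7 fell by 1.48 (SE 0.29, adjusted p = 0.00297). Sox17 had signals of 2212 and 3010 in CD144- cells at day 6.5, against 340 and 328 in VEGF-R2- cells, and rose by 2.93 (SE 0.28, adjusted p = 4.27e-06). The _a_at probe set rose by 1.93 (SE 0.30, adjusted p = 0.000487). Thus 1 gene was called higher and 2 lower, where 5.05% of all probe sets were called higher and 3.72% lower (8.20% and 5.44% of all genes). In this comparison Sox17 by the _x_at probe set ranked 134th from the highest. Between CD144- cells at day 6.5 and day 3.5 limma called 0 of the 3 genes (2 at an unadjusted p under 0.05), where 0.719% of all probe sets were called. Sox7 gave 1.18 (adjusted p = 0.0849), Sox17 0.53 (adjusted p = 0.745) and Sox18 -0.84 (adjusted p = 0.638). Sox7 was called there without CD41+ replicate 1 or 2 (adjusted p = 0.0178 and 0.0192), and Sox18 gave -1.72 without CD144- replicate 1 of day 6.5 (adjusted p = 0.00774) and 0.03 without replicate 2.

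Endothelial genes separated the positive from the negative cells of the later sorts in the same direction as Sox7 and Sox18. Of 25 endothelial genes measured, limma called 19 higher for VEGF-R2, 25 for CD41, 24 for CD144 at day 3.5 and 25 for CD144 at day 6.5. The list includes Kdr and Cdh5, the genes of the sorting markers VEGF-R2 and CD144. Fewer of its genes were called higher for CD41 without CD41+ replicate 1. Of all 18193 genes, 2908 were called higher for VEGF-R2 (29.7% in either direction and 13.7% lower), and 19.2%, 13.7% and 13.4% were called higher in the later sorts. The median changes of the list were 1.94, 3.62, 3.85 and 4.36, against 0.16, 0.18, 0.17 and 0.14 over all genes. Tie1, an endothelial receptor tyrosine kinase, was higher by 7.31 and 7.74 in CD144+ cells at day 3.5 and day 6.5. Icam2, an adhesion molecule of endothelium, was higher by 7.59 and 7.23, and Erg, an ETS factor of endothelial cells, by 7.07 and 6.76. VEGF-R2- cells carried more endothelial signal than the other negative populations, with sums of log2 values over the 25 genes of 206.5 to 208.1, against 157.6 to 171.5 in the later negative cells. The positive populations had sums of 244.6 to 279.7. At day 2.5, 6 of the 25 genes were not called different between VEGF-R2+ and VEGF-R2- cells, as was the case for Sox18. In CD144- cells at day 6.5 against VEGF-R2- cells, 18 of the 25 were lower and 1 was higher, where 5.44% of all genes were called lower. How far the mix of cells in each sort sets the SoxF values was not tested.

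Endoderm genes went both ways between positive and negative cells in each sort. Of 26 definitive and visceral endoderm genes measured, limma called 3 higher and 12 lower for CD41, 3 higher and 4 lower for CD144 at day 3.5, and 4 higher and 8 lower for CD144 at day 6.5. Of all genes, 17.2%, 10.3% and 11.9% were called lower in these comparisons. For VEGF-R2 at day 2.5, 7 of the 26 were called higher and 7 lower, where 16% of all genes were called higher and 13.7% lower. Foxa2, a forkhead factor of endoderm and axial midline, averaged 385 in CD144+ cells, against 1732 in CD144- cells at day 3.5, and was lower by 2.16 (adjusted p = 5.86e-06). Other genes of the list had higher means in CD144+ than in CD144- cells of day 3.5. Among them were Afp (89.7 against 11.9), Apoa1 (107 against 16.5) and Krt18 (8402 against 5589), and the median change of the list there was 0.09. At day 6.5 Foxa2 averaged 251 in CD144+ cells, against 1884 in CD144- cells. Cer1, a secreted inhibitor made by anterior endoderm, averaged 146 in CD144+ cells, against 2417 in CD144- cells of that day. The others called lower at day 6.5 were Trh, Cubn and the epithelial genes Cldn6, Epcam, Krt8 and Cdh1. The 4 called higher at day 6.5 were Hhex, a homeobox factor of endoderm and of endothelium, and the visceral endoderm products Ttr, Rbp4 and Apoa1. Ttr, the carrier transthyretin, averaged 4812 in CD144+ cells, against 725 in CD144- cells (log2 fold change 2.71, adjusted p = 0.0116). Rbp4, the retinol carrier, averaged 4253 in CD144+ cells, against 669 in CD144- cells, and Apoa1, an apolipoprotein, averaged 792 in CD144+ cells, against 187 in CD144- cells. The apolipoprotein genes Apob and Apom did not pass the test, with log2 fold changes of 1.48 and 1.77 (adjusted p = 0.108 and 0.152). From VEGF-R2- cells to CD144- cells at day 6.5, 16 of the 26 endoderm genes were called higher, where 8.20% of all genes were. The mean log2 level of the 26 genes was highest in CD144- cells at day 6.5, followed by CD144+ cells at day 6.5, CD144- and CD144+ cells at day 3.5. Sox17 by the _x_at probe set had the same 4 populations on top in the same order, whereas by the _a_at probe set CD144+ cells of day 6.5 and of day 3.5 came before the CD144- cells of both days. The 12 parietal endoderm genes, a list relevant to Sox7, had 6 called higher and 5 lower for CD144 at day 3.5, and 4 higher and 5 lower at day 6.5. This list had 5 called higher and 2 lower for VEGF-R2, and 6 higher and 4 lower for CD41.

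Over the 8 population means, Sox7 and Sox18 ran alongside endothelial genes, and Sox17 ran alongside endoderm genes by 1 of its 2 probe sets. The median Pearson correlation with the 25 endothelial genes was 0.90 for Sox7 and 0.83 for Sox18, and all 25 were above 0.5 for both. Over 18190 genes the medians were 0.20 and 0.12, with 31.4% and 23% of genes above 0.5. With the definitive and visceral endoderm genes the medians were -0.01 for Sox7 and -0.23 for Sox18. With the 12 parietal endoderm genes they were 0.24 for Sox7 and 0.17 for Sox18. Of these 12 genes, 6 (50%) were above 0.5 for Sox7 and 5 (41.7%) for Sox18. For Sox17 by the _x_at probe set the medians were -0.01 with endothelial genes and 0.55 with endoderm genes, of which 14 of 26 were above 0.5, against 14.2% of all genes. By the _a_at probe set they were 0.41 and 0.38, so this probe set stood nearer to the middle. Sox7 and Sox18 correlated with each other at 0.89 (Spearman 0.67). Sox17 by the _x_at probe set correlated with Sox7 at 0.01 and with Sox18 at -0.32, and the 2 Sox17 probe sets correlated at 0.87. These are descriptions over 8 means in which sort and day are shared.

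**Figure D4:**
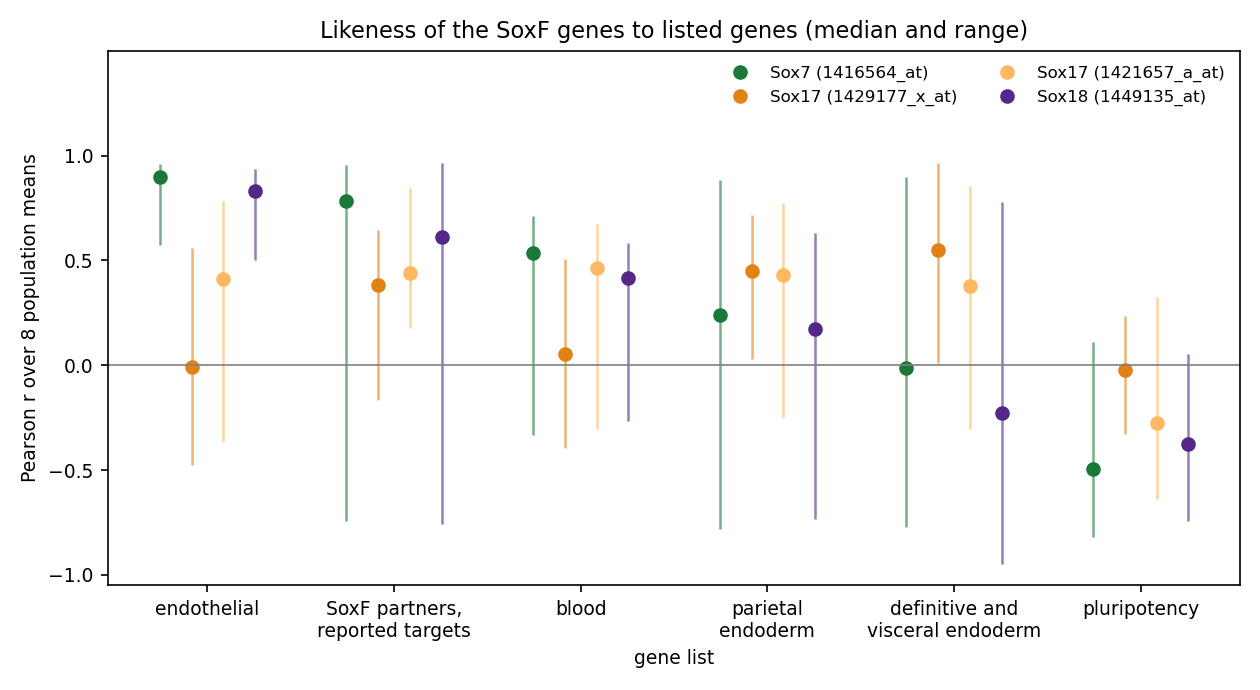
Pearson correlation over the 8 population means between each SoxF probe set and the genes of 6 lists; points are medians over the list and lines run from the lowest to the highest gene. Sox7 and Sox18 have medians of 0.90 and 0.83 with endothelial genes, and Sox17 by the _x_at probe set has its highest median, 0.55, with definitive and visceral endoderm genes.

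Among 22 partners and reported targets of SoxF factors, limma called 10 higher for VEGF-R2, 10 higher and 2 lower for CD41, 15 higher and 2 lower for CD144 at day 3.5, and 13 higher and 1 lower for CD144 at day 6.5. Without CD41+ replicate 1, limma called more genes of this list higher in the CD41 sort, and fewer endothelial and blood genes. The shares of all genes called in these sorts are those given for the endothelial and endoderm lists, with 19.2%, 13.7% and 13.4% higher in the later sorts and 2908 of 18193 genes higher for VEGF-R2. The list medians were 1.23, 0.79, 1.62 and 1.28 on the log2 scale. Cdh5, the endothelial cadherin and sorting marker itself, was higher by 5.85 and 6.05 in CD144+ cells at day 3.5 and day 6.5. Tek, an angiopoietin receptor, was higher by 5.74 and 4.70, and Rasip1, a Ras-interacting protein of vessels known from mouse and frog as dependent on SoxF, by 5.17 and 4.85. Cdh5, Tek, Cldn5 and Robo4 are also in the endothelial list, so the lists are not separate evidence. Mef2c, a MADS box factor that partners Sox18, was not called at day 2.5 (log2 fold change 0.03, adjusted p = 0.97) and was higher by 3.21 in CD144+ cells at day 3.5 (adjusted p = 2.75e-05). Cxcr4, a chemokine receptor of arteries and also of definitive endoderm, was lower by 2.92 in CD144+ cells at day 3.5 (adjusted p = 2.23e-04). It averaged 243 in CD144+ cells, against 1886 in CD144- cells there. Mef2c and Cxcr4 were singled out after their values had been seen.

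The other Sox genes were called lower more often than higher in the VEGF-R2 and CD41 sorts and about equally both ways in the CD144 sorts. Of 16 measured, limma called 0 higher and 5 lower for VEGF-R2 (0 and 6 at an unadjusted p under 0.05), 1 higher and 6 lower for CD41, 3 higher and 2 lower for CD144 at day 3.5, and 2 higher and 2 lower for CD144 at day 6.5. Of all genes, 13.7% were called lower for VEGF-R2 and 17.2% for CD41, and the CD144 counts were near the shares of all genes, 13.7% higher and 10.3% lower at day 3.5 and 13.4% higher and 11.9% lower at day 6.5. The list medians were -0.49, -0.71, 0.43 and 0.20 on the log2 scale. Sox11 and Sox4, SoxC factors of progenitor cells, were lower in all 4 sorts, with Sox11 lower by 1.26 and 1.09 and Sox4 by 0.75 and 0.55 in CD144+ cells at day 3.5 and day 6.5. Sox13, a SoxD factor, was higher by 0.71 and 1.02 there (adjusted p = 0.0178 and 0.00142). It was not the only Sox gene of the list with a higher mean. Sox15 averaged 296 in CD144+ cells, against 79.4 in CD144- cells at day 3.5, and the dim Sox1 averaged 75.9, against 12.

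The genes whose population means were most like those of each member were taken from 3601 bright and variable genes. For Sox7 they were Rhoj, a small GTPase of endothelial cells (r = 0.99), Ap2b1, Erf, Cdc42ep1 and Gas7. For Sox18 they were Shank3 (r = 0.99), the ETS factors Elk3 and Fli1, Myzap and Flt4, the VEGF-R3 receptor. For Sox17 by the _x_at probe set they were Krt8, a keratin of simple epithelia (r = 0.97), Bmp5, Tmprss2, Anxa2 and Lpp. By the _a_at probe set they were Adcy6 (r = 0.96), H2-Ab1, Btg2, Ghr and Ikbip, so the 2 Sox17 probe sets shared none of their 5 nearest genes.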

How the data were processed

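RNA from 8 sorted populations was hybridised to Affymetrix Mouse Genome 430 2.0 arrays, 2 per population. The deposited values are intensity values: MAS5 signals on a linear scale, scaled by the authors before deposition. The MAS5 version and the scaling target were not given in the sources used here. The dChip values behind the study's lists were not analysed here. Arrays of embryo cells were not analysed here. Groups came from the sample descriptions.

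Of 45101 probe sets, 64 controls were left out. An offset of 6, about the 10th percentile of all signals (6.03), was added before log2. A model of population means was fitted in limma 3.58.1 (R 4.3.3) with a variance trend, Benjamini-Hochberg adjustment over 45037 probe sets and a threshold of 0.05. All tests were two-sided. There were 11 comparisons of populations and 3 tests of a difference between differences. The script was tested on simulated data. With 2 arrays per population, their number limits the precision. A list gene was represented by its probe set of highest mean, and the 3 called members with the largest change in the CD144 comparisons were to be named. This was not done for every list: no parietal endoderm gene was named, and Sox1 and Sox15 were given by their means only. The members and lists were chosen with earlier results of these data known. The replicate number was not used as a block. Alternatives were other offsets, quantile normalization, a filter on dim probe sets, fewer arrays, robust or weighted fits, a replicate block, the other probe set of a gene and each array left out. Leaving CD41+ replicate 1 out of the counts was added after its values had been seen. Plots were made in Python 3.11.15 with matplotlib 3.10.9. No promoter or protein sequence of these genes was used here.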

Additional observations from a re-analysis of the deposited data

Results flagged for a closer look

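For all 3 SoxF genes the difference between positive and negative cells was not the same in the VEGF-R2 sort of day 2.5 and the CD144 sort of day 3.5, by a direct test of the change in that difference in limma. It was 2.35 larger on the log2 scale in the CD144 sort for Sox7 (adjusted p = 0.0017) and 4.47 larger for Sox18 (adjusted p = 6.35e-05). For Sox17 it was lower, at -1.73 (adjusted p = 0.0143), a call that was lost when any of 5 single arrays was left out, with adjusted p-values of 0.000138 to 0.0666 over all 16. Both days had 2 arrays a population, and the day and the sorting marker change together, so their parts cannot be told apart. With 2 arrays a group, single outlying arrays were not tested for.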

How the results depend on the processing

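Of 1099 values recomputed for the 42 SoxF results, 1025 kept direction and side of the threshold. With the direction kept, 26 lost and 27 gained a call. In 21 the direction turned, and some of these also lost or gained a call. Offsets, quantile normalization and the filter on dim probe sets changed 1 result: Sox18 in CD41+ against VEGF-R2+ cells became called at -1.11 (offset 16) and -1.07 (offset 64), and at -1.12 with only these populations, only positive arrays or without either CD144- array of day 6.5. With only the populations compared, Sox17 became called for CD144 at day 3.5 (-0.57) and for CD144+ cells at day 6.5 against day 3.5 (0.87), and lost its call for CD144 against CD41+ cells (1.28). A robust prior removed that call (1.28), the Sox7 call there (1.13, also with array weights) and the Sox17 change between sorts (-1.73), and array weights added Sox7 in CD144- cells at day 6.5 against day 3.5 (1.18). The causes were not tested. The dim Sox7 probe set gave 0.019, 1.35, 0.040 and 0.99 in the 4 sorts. It gave -0.053 for CD41+ and 1.195 for CD144+ cells at day 6.5 against VEGF-R2+ cells, 1.73 for CD144+ cells at day 6.5 against day 3.5, -0.49 for CD144 against CD41+ cells and 0.23 for CD144- against VEGF-R2- cells, and 0.95, -1.31 and 0.021 for the 3 changes between sorts. The other Sox17 probe set gave 1.06, 0.12 and 1.41 in the sorts after day 2.5, 0.20 for CD41 against VEGF-R2+ cells, 1.28 for CD144+ cells at day 6.5 against day 3.5, 0.78 for CD144 against CD41+ cells, -0.016 for CD144- cells at day 6.5 against day 3.5 and -0.96 for the change from the VEGF-R2 to the CD144 sort.

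Leaving out each array gave these ranges for results whose call or direction changed. Sox7 ranged from -1.92 to -0.94 for CD41 against VEGF-R2+ cells, from 0.64 to 1.62 for CD144 against CD41+ cells, from 1.02 to 1.34 for CD144- cells at day 6.5 against day 3.5, from -1.67 to -1.30 for the CD144 difference at day 6.5 against day 3.5 and from -0.26 to 0.72 for that of CD144 against CD41. Sox17 ranged from 1.01 to 1.32 for VEGF-R2, from -0.60 to 0.71 for CD41, from -0.65 to -0.48 for CD144 at day 3.5, from -1.26 to 0.046 for CD41 and from 0.51 to 0.82 for CD144 at day 3.5 against VEGF-R2+ cells, from 0.79 to 0.95 for CD144+ cells at day 6.5 against day 3.5, from 0.62 to 1.93 for CD144 against CD41+ cells, from -1.27 to 0.037 for the difference of CD144 against CD41 and from -1.88 to -1.58 for that of CD144 against VEGF-R2. Sox18 ranged from -1.53 to -0.71 for CD41 and from -0.13 to 0.022 for CD144 at day 6.5 against VEGF-R2+ cells, from -1.72 to 0.034 for CD144- cells at day 6.5 against day 3.5, from 0.49 to 2.25 for the CD144 difference at day 6.5 against day 3.5 and from -0.35 to 0.47 for that of CD144 against CD41. Where an arm was left with 1 array, it was assumed to vary like the other populations.

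Same-numbered arrays did not deviate together: over 28 pairs of populations the correlation of deviations ran from -0.17 to 0.157, with 2 over 0.1. The replicate block changed none of the 42 SoxF calls (18 called with and without it), with Sox7 at 2.32 and Sox18 at -0.17 for VEGF-R2, and moved the counts of called probe sets by 1.01 to 1.19 times.

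With 2 arrays a population and no calls of presence, low Sox7 and Sox18 levels in negative cells are known only roughly. The brighter spiked controls on positive arrays cannot be told apart from the sort.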
